A study of Caenorhabditis elegans with 2 samples.

Results

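The genes described here are 81 protein-coding genes of Caenorhabditis elegans whose names mark them as cell cycle or DNA replication genes, of 19985 protein-coding genes in all. They were picked by a rule on names that was set with results of these data known. The rule took cyclin-dependent kinases (cdk), cyclins (cya, cyb, cyd, cye), their inhibitors (cki), and the replication families mcm, orc, psf, cdt, rpa, rfc and pcn. It took the mitotic families plk, air, bub, mdf, fzy and apc, and all genes named emb or cdc with a number except the 3 cdc-48 genes. The name rule also takes in 10 genes that fall in none of the role groups used below and are kept apart there. Most have other known functions, such as emb-9, which encodes a collagen of basement membranes.

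The study mapped, by chromatin immunoprecipitation and sequencing, where a GFP-tagged form of the protein F22D6.2 sits on the genome. Hermaphrodites of strain OP399, genotype unc-119(tm4063) III; wgIs399, carry the transgene wgIs399 and so express F22D6.2 fused at its C-terminus to GFP and FLAG. Whole young adults were taken 67 hours after release from starved, synchronized L1 larvae, and antibody to GFP was used for the precipitation. There was 1 group with 2 biological replicates, and no untagged or mutant group was analysed here, so no test compared groups. The signal comes from a tagged transgene in whole animals, in which all tissues are mixed.

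In a dividing cell, the origin recognition complex, CDC-6 and CDT-1 load the MCM helicase onto DNA, and the GINS complex joins it when replication starts. The clamp loader RFC then places the sliding clamp PCNA, which tethers the polymerases. Cyclin-dependent kinases with their cyclins drive these steps and entry into mitosis, the spindle checkpoint delays chromosome separation until all chromosomes are attached, and the anaphase-promoting complex starts it. In adult worms most dividing cells are in the germ line.

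Each gene was described by the highest peak summit within 500 bp of its annotated 5' end in each of 3 deposited lists on genome build ce11: the list pooled from both replicates (26002 regions), that of replicate 1 (25000) and that of replicate 2 (23268). These lists hold peaks and background regions together. The signal value is a score per peak against the control, deposited by the authors on a scale they do not state. It ran from 15.1 to 6333 in the pooled list, and it ranks peaks within a list only. The authors' thresholded set is the 798 highest pooled peaks, down to a value of 80.3. The read depth of the libraries was not given in these files.

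Of the 81 genes, 3 had a thresholded summit: pcn-1, rfc-4 and cdk-7 (3.70%, against 2.06% of all protein-coding genes). A further 34 had a lower summit in the pooled list, which makes 37 listed genes (45.7%, against 30.2%). Another 13 appeared only in a replicate list, and 31 appeared in no list (38.3%, against 57.2%). No test was made of these shares, because the genes were singled out with results of these data known.

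**Figure D1:**
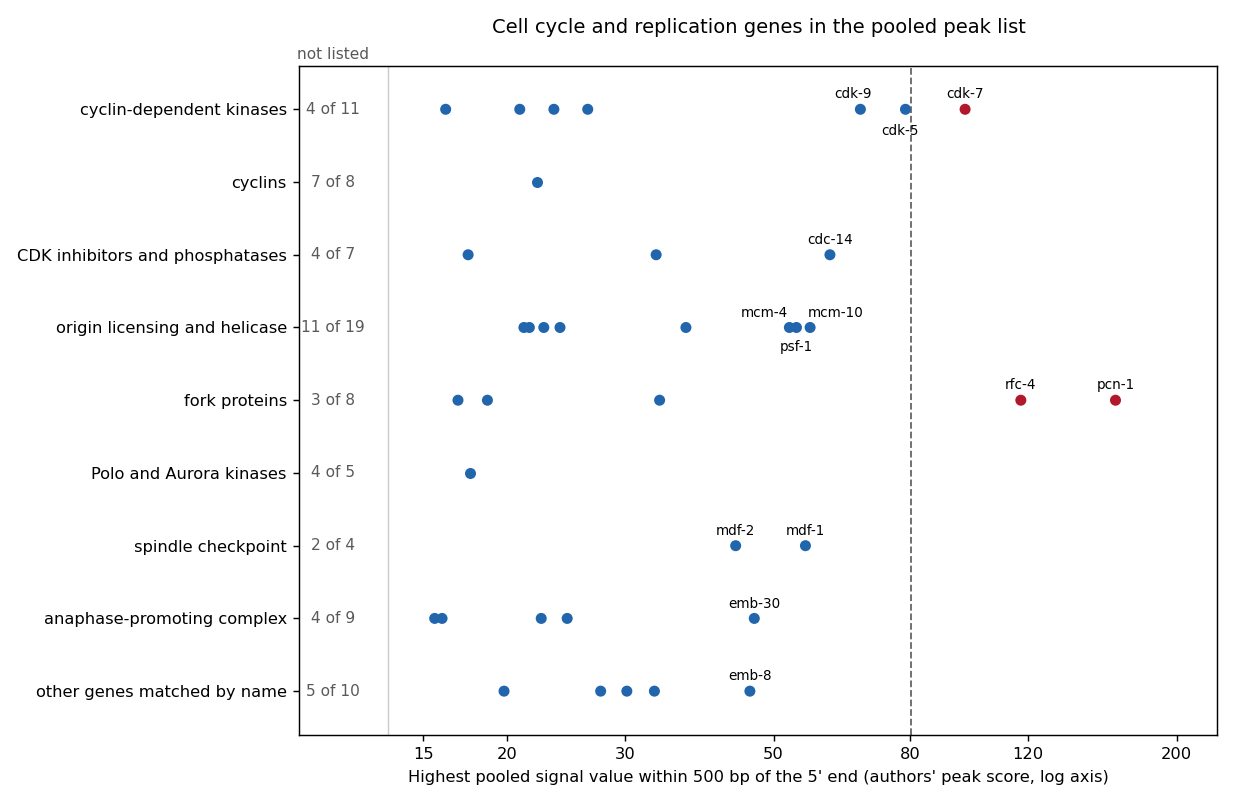
Highest pooled signal value of each listed gene (horizontal log axis, the authors' peak score) by role (rows), with the number of genes not in the pooled list at the left; red points have a thresholded summit and the dashed line is the lowest thresholded value, 80.3. The fork proteins pcn-1 and rfc-4 lie highest, and 7 of the 8 cyclin genes are not in the pooled list.

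The highest signal values of the 81 genes were at pcn-1 and rfc-4, which encode proteins of the replication fork. The gene pcn-1 (WBGene00003955), for the sliding clamp PCNA, lies on chromosome IV from 4047937 to 4049448 on the minus strand. Its summit was at 4049738, 290 bp upstream of the 5' end in intergenic sequence, inside a peak from 4049673 to 4049829. The signal value was 162 in the pooled list (rank 156), 83.5 in replicate 1 (rank 156) and 80.7 in replicate 2 (rank 187). The summits of the 3 lists lay within 44 bp of each other, and its rank was at 0.624% of the list in replicate 1 and 0.804% in replicate 2. No other annotated 5' end lay within 500 bp of it.

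The gene rfc-4 (WBGene00004340), for a subunit of the clamp loader, lies on chromosome III from 6972253 to 6973717 on the plus strand. Its summit, 143 bp upstream at 6972110, had a value of 117 in the pooled list (rank 358), 48.4 in replicate 1 (rank 591) and 67.9 in replicate 2 (rank 285). These summits lay within 29 bp of each other. The same summit lay 398 bp upstream of eef-1A.1, which encodes a translation elongation factor and points away from rfc-4, and 25 bp upstream of the microRNA gene cel-mir-5549. The peak cannot be given to any 1 of these genes.

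The bases under the summits are shown here for the 6 genes of highest signal whose sequence could be printed and that held no exon of a protein-coding gene in the window, so that the regions with the strongest signal can be read directly. Each is 100 bases of the RefSeq copy of the WBcel235 assembly (the same assembly as ce11) around the highest pooled summit, written 5' to 3' on the gene's own strand. Capitals mark matches on either strand to the motifs searched, which are given with their shares further on.

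pcn-1, chrIV:4049689-4049788, minus strand: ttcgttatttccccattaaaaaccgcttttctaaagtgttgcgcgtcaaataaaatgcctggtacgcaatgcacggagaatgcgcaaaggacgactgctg
rfc-4, chrIII:6972060-6972159, plus strand: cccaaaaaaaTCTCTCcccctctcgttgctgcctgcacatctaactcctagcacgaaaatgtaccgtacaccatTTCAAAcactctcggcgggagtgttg
cdk-5, chrIII:13466396-13466495, minus strand: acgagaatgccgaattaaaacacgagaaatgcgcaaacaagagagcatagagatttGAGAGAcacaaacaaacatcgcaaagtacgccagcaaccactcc
cdc-14, chrII:5593615-5593714, minus strand: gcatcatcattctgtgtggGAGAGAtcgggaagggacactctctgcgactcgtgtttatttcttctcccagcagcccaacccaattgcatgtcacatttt
mcm-10, chrIII:11317245-11317344, plus strand: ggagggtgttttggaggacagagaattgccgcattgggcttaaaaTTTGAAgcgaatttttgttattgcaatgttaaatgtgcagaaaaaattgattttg
mdf-1, chrV:9544366-9544465, minus strand: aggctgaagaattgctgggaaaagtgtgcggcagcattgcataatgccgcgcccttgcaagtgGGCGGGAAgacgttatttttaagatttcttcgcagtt

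The other fork proteins were lower or absent. Of 8 fork genes 5 were in the pooled list (62.5%, against 30.2% of all protein-coding genes). This and the role groups below are small, and their shares were not tested. The clamp loader subunit gene rfc-2 had a value of 33.8 in the pooled list and 20.2 in replicate 1 (rank 4888), but 10.3 in replicate 2 (rank 21876), near the bottom of that list. The genes rpa-4 (18.7) and rfc-3 (16.9) lay close to the floor of the pooled list, and rfc-3 was in neither replicate. The largest subunit of the clamp loader, rfc-1, and that of the single-strand binding protein RPA, rpa-1, had no summit in any list. For rpa-2, another RPA subunit, the only summit within 500 bp was in replicate 2 (20.2, at 199 bp downstream). Outside the window, the nearest pooled summit to rpa-2 lay 537 bp from its 5' end with a value of 93.3, and a higher one, of 159.5, lay 742 bp upstream. Both values are above the threshold.

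Among 11 cyclin-dependent kinase genes 7 were in the pooled list (63.6%, against 30.2%). The 3 highest are kinases known for activating other CDKs, for neurons and for transcription. The gene cdk-7 (WBGene00000408, chromosome I from 2281503 to 2291205) encodes a kinase that activates other CDKs and is part of the transcription factor TFIIH. Its summit lay 3 bp upstream of the 5' end, with a value of 96.6 in the pooled list (rank 537), 50.9 in replicate 1 (rank 532) and 44.1 in replicate 2 (rank 797). In replicate 2 the highest summit lay 104 bp upstream, so the replicates' summits were 112 bp apart. The gene cdk-5, known for its work in neurons, had 78.7 in the pooled list (rank 841), just under the threshold. Its value was 25.6 in replicate 1 (rank 2591) and 55.4 in replicate 2 (rank 451), and the summit lay 103 bp upstream, within an intron of kel-3.

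The gene cdk-9, for the kinase that releases paused RNA polymerase II, had 67.4 in the pooled list (rank 1138), 37.3 in replicate 1 (rank 1084) and 31.1 in replicate 2 (rank 1767). Its summit lay 169 bp upstream and also 248 bp upstream of hxk-2, which points the other way. These kinases stood apart from the others of the family: cdk-11.1 had 26.4, cdk-2 had 23.5, cdk-11.2 had 20.9 and cdk-8, a kinase of the Mediator complex, had 16.2. The central mitotic kinase gene cdk-1 and the G1 kinase gene cdk-4 had no summit in any list, like cdk-12 and cdk-14. The nearest pooled summit lay 1849 bp from the 5' end of cdk-1, with a value of 17, and 2488 bp from that of cdk-4, with a value of 29.2.

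Cyclin genes were nearly absent. Of 8, only cyb-2.1, for a mitotic B-type cyclin, was in the pooled list, with a value of 22.2 at 190 bp upstream. It was in replicate 2 (22.4, rank 3860) and not in replicate 1. The gene cyd-1, for the G1 cyclin D, was listed in replicate 2 only (13.4). The genes cya-1, cya-2, cyb-1, cyb-2.2, cyb-3 and cye-1 were in no list. The nearest pooled summit to cye-1, for the S phase cyclin E, lay 592 bp from its 5' end with a value of 39.8. With 1 listed gene of 8, the group's share was 12.5%, but the group is small and the difference from 30.2% was not tested.

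Of 7 genes for CDK inhibitors and phosphatases 3 were in the pooled list (42.9%, against 30.2%). The phosphatase gene cdc-14 had a value of 60.7 in the pooled list (rank 1414), 32.2 in replicate 1 (rank 1515) and 25.4 in replicate 2 (rank 2826), with summits within 30 bp of each other about 237 bp upstream. The inhibitor gene cki-1 had 33.4 in the pooled list, 16.5 in replicate 1 and 20.8 in replicate 2, but the replicates' summits were 168 bp apart, on either side of the 5' end. Its neighbour cki-2 had 17.5 in the pooled list, 431 bp downstream. None of the 4 cdc-25 genes, for phosphatases that activate CDKs, was listed anywhere.

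Origin licensing and helicase genes were the largest group, with 8 of 19 in the pooled list (42.1%, against 30.2%), none of them above the threshold. The replication initiation factor gene mcm-10 had 56.7 in the pooled list (rank 1620), 28.7 in replicate 1 (rank 1955) and 28.9 in replicate 2 (rank 2114). Its summit lay 275 bp upstream, within an intron of teg-1, and the replicates' summits were 158 bp apart. The GINS subunit gene psf-1 had 54.1 in the pooled list and 37.7 in replicate 1 (rank 1063), but 12.2 in replicate 2 (rank 16019), although the summits lay within 30 bp. That summit, 200 bp upstream, also lay in the non-coding genes R53.9 and R53.11 and 424 bp upstream of R53.4, which points the other way. The helicase subunit gene mcm-4 had 52.8 in the pooled list, 18.7 in replicate 1 (rank 5916) and 35.7 in replicate 2 (rank 1260), with the replicates' summits 130 bp apart.

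The other genes of this group were lower in the pooled list or absent from it. The gene cdc-6 had 37.0 in the pooled list, 12.6 in replicate 1 (rank 15176) and 27.5 in replicate 2 (rank 2337), and its summit lay 66 bp upstream of the neighbour acin-1. The genes cdt-1 (24.0), orc-1 (22.7) and mcm-3 (21.6) were in the pooled list and in replicate 1 only. For psf-2 (21.2) the highest summits of the replicates lay 846 bp apart, on opposite sides of the 5' end. Of the MCM helicase, mcm-5 and mcm-6 were in no list, mcm-7 was in replicate 2 only (21.9), and mcm-2 was in both replicates (13.2 and 17.1) with summits 428 bp apart but not in the pooled list. The genes orc-4 and mcm-3AP were in replicate 1 only, at 13.1 and 11.2. Genes were placed in the role groups by name, and mcm-3AP is counted here by its name, not as a known helicase subunit. The genes orc-2, orc-3, orc-5, psf-3 and cdc-7 were in no list.

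Of 4 spindle checkpoint genes 2 were in the pooled list. The gene mdf-1, the worm MAD1, had 55.8 in the pooled list (rank 1680), 34.3 in replicate 1 (rank 1304) and 27.3 in replicate 2 (rank 2366), with a summit 189 bp upstream. Its partner mdf-2, the worm MAD2, had 43.9 in the pooled list, 28.1 in replicate 1 (rank 2068) and 18.5 in replicate 2 (rank 6259). That summit lay 47 bp upstream of mdf-2 and 138 bp upstream of nduv-3 on the other strand. The genes bub-1 (10.3, replicate 1) and bub-3 (13.8, replicate 2) were each listed in 1 replicate and not in the pooled list.

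Of the Polo and Aurora kinase genes only plk-2, which acts in meiotic chromosome pairing, was in the pooled list, at 17.6 and 496 bp upstream, near the edge of the window. The gene plk-1 was in replicate 1 only (14.6) and plk-3 in replicate 2 only (10.4), and air-1 and air-2 were in no list. Of 9 genes of the anaphase-promoting complex and its activator, 5 were in the pooled list (55.6%, against 30.2%). The subunit gene emb-30 had 46.8, with 27.4 in replicate 1 (rank 2197) and 22.4 in replicate 2 (rank 3878), and its summits lay within 8 bp of each other, 207 bp downstream of the 5' end. The rest were lower in the pooled list: apc-10 had 24.6, cdc-26 had 22.5, apc-11 had 16 and emb-1 had 15.6. For apc-11 the pooled summit lay 160 bp upstream and that of replicate 2 lay 452 bp downstream. In replicate 1 emb-1 had 18.1 (rank 6462). Outside the window, a thresholded summit of 145 lay 765 bp upstream of emb-1. The gene emb-27 was in replicate 2 only (12.2), and the activator gene fzy-1, apc-2 and apc-17 were in no list.

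Of the 10 genes outside these role groups 5 were in the pooled list, none of them among the 2394 highest peaks. The highest was emb-8, for an NADPH-cytochrome P450 reductase, with 46.1 in the pooled list, 21.5 in replicate 1 and 24.0 in replicate 2 at 92 bp downstream, in a coding exon. Also in the pooled list were cdc-37 (33.2), for a co-chaperone of Hsp90, emb-9 (30.2), cdc-73 (27.6), for a subunit of the Paf1 complex, and cdt-2 (19.8), for the substrate receptor of a ubiquitin ligase that removes CDT-1 in S phase. The gene cdt-2 is thus tied to replication licensing by its known role, unlike most of the 10. The genes emb-4 and cdc-42 were in replicate lists only, and emb-5, cdc-5L and cdc-50.B in none. Without these 10 genes, 32 of 71 were in the pooled list (45.1%), and all 3 genes with a thresholded summit remained.

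The difference from all genes was seen at each depth of the pooled list that was examined. Among the 1197 highest pooled peaks, down to a value of 65.5, 5 of the 81 genes had a summit (6.17%, against 3.03%), with cdk-5 and cdk-9 added. Among the 2394 highest, down to 47.3, there were 10 (12.3%, against 5.55%), with cdc-14, mcm-10, mdf-1, psf-1 and mcm-4 added. Among the 4788 highest, down to 34.5, there were 14 (17.3%, against 9.25%). At a deposited q-value under 0.05 there were 13 (16%, against 7.29%). These sets are nested, so they are not separate observations. Among listed genes the median value was close to that of all listed genes, while the upper end of the middle 50% was higher. The median was 27.6 over the 37 genes, with the middle 50% from 21.2 to 52.8. Over all 6033 listed genes, these 37 included, it was 25.7, with the middle 50% from 19.6 to 38.4.

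**Figure D2:**
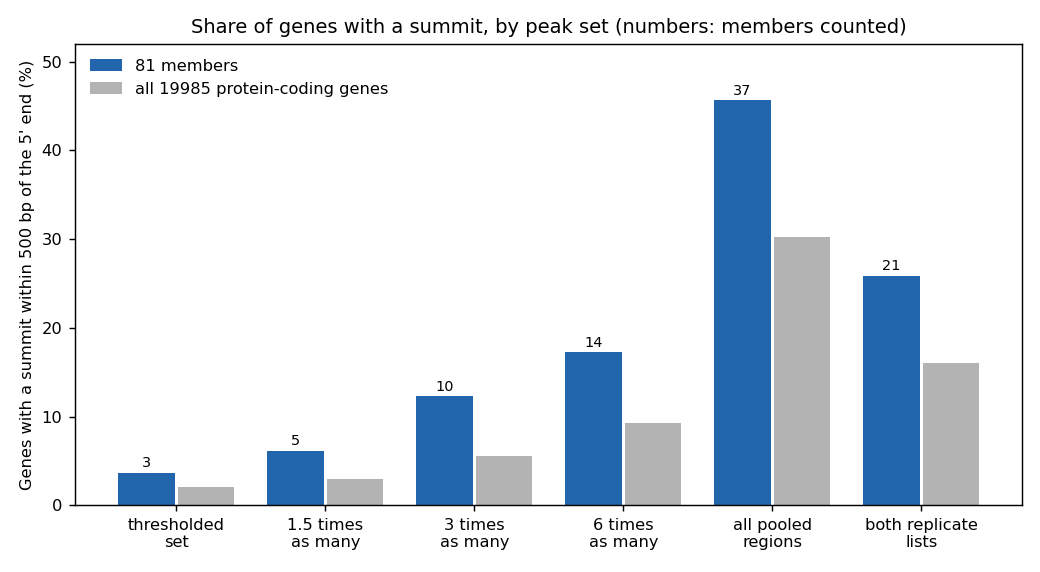
Percent of genes with a summit within 500 bp of the 5' end (vertical axis) for the 81 cell cycle and replication genes (blue, with the number of genes above the bar) and all 19985 protein-coding genes (grey), by peak set; the first 4 sets are the 798, 1197, 2394 and 4788 highest pooled peaks. The blue bar is the higher of the pair in each set, from 3.70% against 2.06% to 45.7% against 30.2%.

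The replicates gave similar counts but partly different genes. Replicate 1 listed 34 of the 81 genes (42.0%, against 28.4%) and replicate 2 listed 35 (43.2%, against 27.8%). Both listed 21 (25.9%, against 16.1%), and 19 were in all 3 lists (23.5%, against 15.3%). In 11 of the 21 the highest summits lay within 100 bp of each other (52.4%, against 52.3% of all genes in both lists). These were pcn-1, rfc-4, cdk-5, cdk-9, cdk-11.1, cdc-14, psf-1, mdf-1, mdf-2, emb-30 and emb-8. Across the 21 genes Spearman's rho between the replicates' values was 0.57, and across all 3225 genes in both lists it was 0.59. Both replicates were set against the same control, and the genes are not independent samples, so this is a description.

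**Figure D3:**
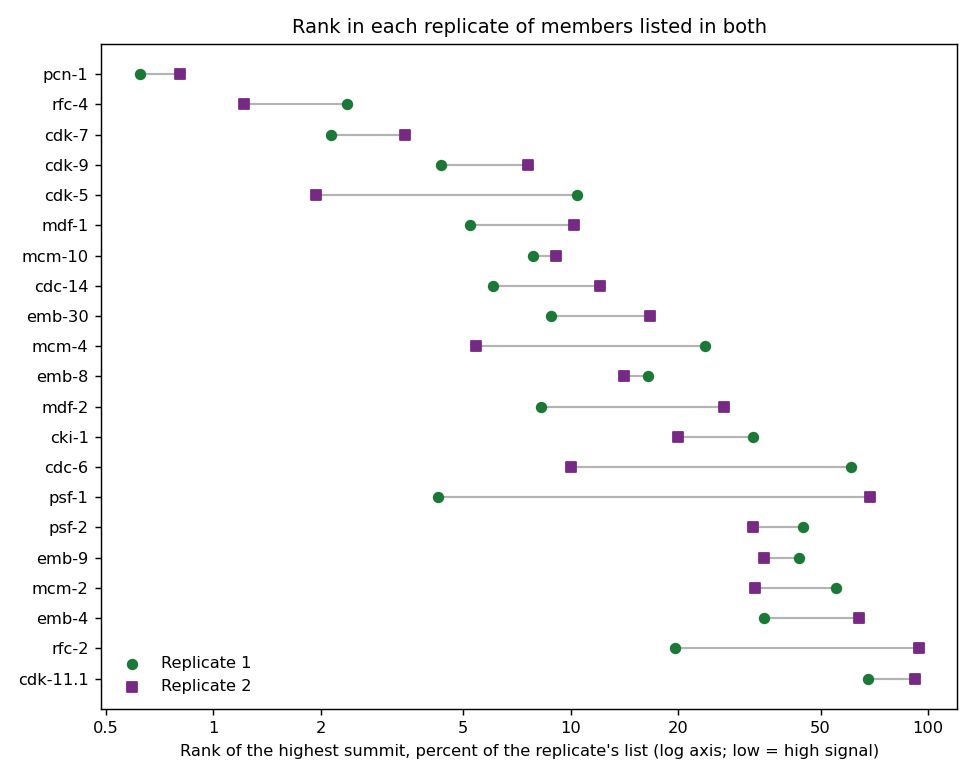
Rank of the highest summit in replicate 1 (circles) and replicate 2 (squares), as a percent of that replicate's list on a log axis, for the 21 genes listed in both. The markers of pcn-1 lie at 0.624% and 0.804%, while those of rfc-2 lie at 19.6% and 94.0%.

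The 3 genes with a thresholded summit, pcn-1, rfc-4 and cdk-7, stood at the top of the plot of ranks. The gene rfc-4 was at 2.36% and 1.22% of the lists of replicates 1 and 2, and cdk-7 at 2.13% and 3.43%. The 5 largest gaps were at rfc-2 (19.6% and 94.0%), psf-1 (4.25% and 68.8%), cdc-6 (60.7% and 10.0%), emb-4 (34.8% and 64.1%) and cdk-11.1 (67.9% and 91.8%). In 4 of these the position in the list was higher in replicate 1, and in cdc-6 it was higher in replicate 2. Each rank is that of the replicate's own highest summit, which need not be the same site. Those summits lay 521 bp apart at emb-4, 182 bp at rfc-2, 148 bp at cdc-6, 30 bp at psf-1 and 29 bp at cdk-11.1.

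Summits of these genes lay mostly upstream. Of the 37 highest pooled summits, 28 were upstream of the 5' end (75.7%, against 61.4% of all listed genes), and the median summit was 160.0 bp upstream, against 79.0 bp. In replicate 1 alone 25 of 34 were upstream (73.5%, against 58.1%) and in replicate 2 alone 24 of 35 (68.6%, against 61.9%). Of the 10 highest, from pcn-1 to mcm-4, all lay upstream, from 3 to 290 bp. The upstream share of all genes with such high summits is not given here. The summit at 3 bp was that of cdk-7, whose highest summit in replicate 1 lay 8 bp downstream. The 9 downstream summits included those at emb-30 and emb-8 and the coding exon summits of cki-1, cki-2 and emb-9.

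**Figure D4:**
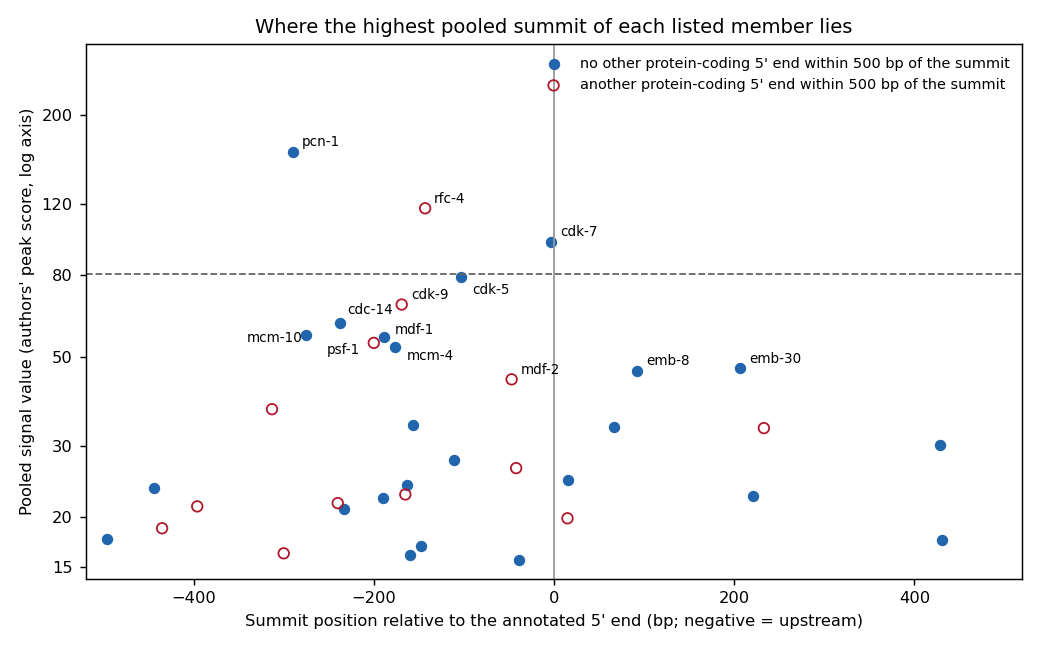
Position of the highest pooled summit relative to the annotated 5' end (horizontal axis, bp, negative is upstream) against its signal value (vertical log axis, the authors' peak score) for the 37 listed genes. Open circles are summits that also lie within 500 bp of another protein-coding 5' end; 28 of the 37 lie left of 0, and the dashed line is the lowest thresholded value, 80.3.

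A summit near these genes was often near another gene too. Of the 37 summits, 13 lay within 500 bp of another protein-coding 5' end (35.1%, against 19.1% of listed genes). Besides rfc-4, cdk-9, psf-1, cdc-6 and mdf-2, these were cdc-37, cdk-11.1, cdk-8, cdt-2, mcm-3, orc-1, psf-2 and rpa-4. When each summit was given only to the protein-coding gene with the nearest 5' end, 32 of the 81 genes kept a pooled summit (39.5%, against 27.7%) and 3 a thresholded one (3.70%, against 1.66%). By chromosome, genes in the pooled list numbered 11 of 21 on I (33.5% of all genes there), 6 of 17 on II (28.1%), 9 of 20 on III (37.0%), 6 of 11 on IV (29.6%), 4 of 10 on V (26.7%) and 1 of 2 on X (29.7%).

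The windows were searched on both strands for motifs known from cell cycle promoters and from worm promoters in general. TTTCCCGC, a form of the site of the transcription factor E2F, was in none of the 37 windows of 100 bp at the highest summits, and in 0.680% of those at all 6033 listed genes. GGCGGGAA, another form, was in 1, at mdf-1 (2.70%, against 0.547%). TTTGAA and TTCGAA, forms of the cell cycle homology region, were in 10 (27%, against 22.3%) and 3 (8.11%, against 5.74%). GAGAGA was in 8 (21.6%, against 10.3%), among them rfc-4, cdk-5, cdk-7 and cdc-14, and CTGCGTCT was in none (against 2.87%). The reverse complement of TTTCCCGC shares all but its last base with the end of GGCGGGAA, so 1 stretch can match both. Any of the 6 motifs was in 20 windows (54.1%, against 37.5%). The median GC content of the windows was 42.0%, against 39.0% at all listed genes.

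In promoters, taken from 250 bp before to 50 bp after the 5' end whether or not a summit was there, TTTCCCGC was in 6 of the 81 genes (7.41%, against 1.57% of all protein-coding genes). These were cdk-2, cdt-1, cyd-1, mcm-6, rfc-1 and rpa-1. Of these, cdk-2 and cdt-1 were in the pooled list, at 23.5 and 24.0, cyd-1 was in replicate 2 only, and mcm-6, rfc-1 and rpa-1 were in no list. GGCGGGAA was in the promoters of mdf-1 and psf-3 (2.47%, against 1.1%). A match is a run of letters and does not show that a factor binds there.

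Of 103 other genes of the same processes that carry different names, 53 were in the pooled list (51.5%, against the 30.2% above). In both replicates there were 37 of the 103 (against 16.1% of all protein-coding genes), and 9 had a thresholded summit (8.74%, against 2.06%). The list of these 103 genes was written with results of these data known. Of the 9, 4 (lin-9, lin-35, lin-53 and lin-54) encode subunits of the DRM complex, which holds cell cycle genes in check. Their signal was among the results already known. The other DRM subunit genes among the 103 were below the threshold: efl-1 (63.5), lin-52 (50.1), lin-37 (33.7) and dpl-1 (15.8, rank 24299). The other 5 of the 9 act at the replication fork or in the checkpoint that senses DNA damage. They were hpr-9 (143) and mrt-2 (100.4), for subunits of the checkpoint clamp, hpr-17 (99.1), for its loader, clsp-1 (117), for the worm Claspin, and ctf-4 (138), for a replisome scaffold.

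For these the replicates gave similar ranks, except at clsp-1. In replicates 1 and 2 the ranks were 227 and 260 for hpr-9, 622 and 632 for mrt-2, 514 and 722 for hpr-17, 213 and 382 for ctf-4, and 245 and 1061 for clsp-1. Of the 9 summits, 7 lay within 500 bp of another protein-coding 5' end, as did those of 162 of the 411 protein-coding genes with a thresholded summit (39.4%). The one at clsp-1 lay 246 bp upstream of it and 19 bp upstream of eef-2, and the one at ctf-4 lay 147 bp upstream of it and 33 bp upstream of eef-1G, both translation elongation factor genes. The summits of lin-9 and mrt-2 had no such neighbour. The remaining subunit gene of the checkpoint clamp, hus-1, and the checkpoint kinase genes atl-1, chk-1 and chk-2 had no pooled summit within 500 bp. A further checkpoint kinase gene, atm-1, had one with a value of 33.4 (rank 5162), 474 bp upstream, and was in both replicates (22 and 11.1). These 5 genes were singled out after their values were seen.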

How the data were processed

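The authors deposited 8 peak lists in narrowPeak layout, of which 4 on ce11 were used for genes and 1 on ce10 for its length and lowest value. The notes among the deposited files name, for each list, the alignments of 1 or both replicates and a control common to them. The aligner, peak caller, versions and IDR threshold are not given in the sources used here. The signal value of a peak is the authors' own, on a scale not stated. The q-value is deposited as −log10, with a ceiling of 2.44 that all thresholded peaks reach.

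Gene models came from Ensembl release 115 (WBcel235), sequence from RefSeq. No peak ran past a chromosome's end. A gene's 5' end was its outermost one. Each gene took the highest summit within 500 bp, and a summit could serve several genes. Counts and medians were computed with Python 3.11.15, pandas 2.3.3 and scipy 1.17.1, beside the same over all protein-coding genes, and no set was tested. Summit assignment was tested on simulated data. Named genes were those with a thresholded summit, the 12 highest in the pooled list and 5 highest in each replicate, the 3 just below the threshold, the 3 lowest, those with coinciding summits, the 5 with the largest rank gaps and a list of core genes. Other unlisted or low genes are named to account for every gene. Members and lists were chosen with earlier results of these data known.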

Additional observations from a re-analysis of the deposited data

How the results depend on the processing

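Of 40 alternative settings over 7 results, 28 left the value within 1.5 times of the reported count, or within 0.767 of the reported median. That bound is the SD between the medians of the 2 replicate lists, whose values run lower than those of the pooled list, so it is only a rough yardstick for the pooled median. The count of 3 genes with a thresholded summit became 5 with a 1000 bp window (6.17%, against 2.86% of all protein-coding genes), where rpa-2 and emb-1 were added. It was also 5 with the longer set of 1197 peaks (6.17%, against 3.03%). That length is close to the 1195 peaks that the authors' ce10 set holds. No thresholded set of 1 replicate was used, so the 798 highest peaks of each replicate's own list were taken instead. They gave 3 genes in replicate 1 (3.70%, against 1.97%) and 4 in replicate 2 (4.94%, against 1.88%). The count of 37 genes in the pooled list was 34 to 35 with 1 replicate alone, and fell to 10, 14 and 13 with 3 times and 6 times the thresholded number of peaks and at a q-value under 0.05, settings chosen after seeing the data that keep fewer peaks. The count of 21 genes in both replicates became 13 with a 250 bp window, and the 11 with coinciding summits became 18 when 200 bp was allowed. The shares of all genes at those settings are not given here. The 28 upstream summits became 24 to 25 with 1 replicate alone. The median of 27.6 became 31.6 with a 250 bp window, 29.2 with a 1000 bp window and 31.7 with the nearest gene only. The 20 genes with any motif at the summit (54.1%, against 37.5% of all listed genes) became 31 with 200 bp windows (83.8%, against 61.4%) and 71 of 81 in promoters (87.7%, against 78.3% of all protein-coding genes). No paired analysis was possible because there was 1 group. The depth was not given, so a gene in no list may hold signal under the authors' floor.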
